A study of Mus musculus with 11 samples.

Results

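The genes followed here are 10 genes of the class I major histocompatibility complex (MHC) pathway, out of 26921 genes in the count tables of all 11 libraries. They are the classical heavy chains H2-K1 and H2-D1, their shared light chain B2m, the non-classical heavy chains H2-Q4, H2-Q6, H2-Q7 and H2-T23, and the peptide-loading genes Tap1, Tap2 and Tapbp. They were chosen by name, with earlier results of these data known: H2-Q6 and H2-Q7 had been picked for their rise in aged endothelial cells (ECs), so aged against adult ECs are described below without a test. Cells came from the cerebral cortex of C57BL/6 mice after perfusion, enzyme digestion and removal of myelin, and were captured with the 10x Chromium 3′ v2 kit, which gives every captured transcript its own molecular tag (UMI). Untreated mice gave 4 libraries at postnatal day 10 (juvenile), 3 at 7 to 11 weeks (adult) and 2 at 18 months (aged), and 2 more came from mice at the peak of experimental autoimmune encephalomyelitis (EAE, 7 to 11 weeks). EAE was induced in female mice with the myelin peptide MOG35–55 in Complete Freund's Adjuvant, followed by pertussis toxin. The adult mice received none of these agents, so EAE against adult compares disease, adjuvant and toxin together, and the labels give no sex for the other groups, while the study's methods name female C57BL/6 mice as the default. Each juvenile or adult sample pooled 6 mice, and each aged or EAE sample 3. The labels do not say that libraries of 1 group came from separate pools, so p-values measure the spread between these libraries, which may be technical.

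Class I molecules carry peptides from inside the cell to its surface, where CD8+ T cells and natural killer cells read them. A heavy chain pairs with beta-2 microglobulin (B2m), the transporter formed by TAP1 and TAP2 brings peptides into the endoplasmic reticulum, and tapasin (Tapbp) holds the empty molecule at that transporter until a peptide binds. Interferons raise the expression of many genes of this pathway, and healthy brain tissue is known for low class I levels. H2-T23 encodes Qa-1, whose peptide comes mostly from other class I heavy chains and which is read by inhibitory receptors of natural killer cells. The H2-Q genes encode Qa-2 and related non-classical chains.

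In the GENCODE M21 annotation (GRCm38), 9 of the 10 genes lie on chromosome 17, from the start of Tapbp at 33915899 to the end of H2-T23 at 36032855. B2m lies on chromosome 2 (chr2:122147686-122153083). H2-Q6 (chr17:35424850-35430055) and H2-Q7 (chr17:35439155-35443773) are neighbours of nearly the same sequence, both on the plus strand. Of the windows of 98 bases within the last 400 bases of their annotated transcripts, 30.4% of those of H2-Q6 also occurred in other genes, among them H2-Q7, H2-Q1 and H2-D1. The share was 13.9% for H2-T23, 9.24% for H2-Q4 and 0% for the other 7 genes, so the division of reads between H2-Q6 and its relatives is uncertain. Their UMIs are added together in the ratio to the classical pair given further on.

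Promoters were read for 9 of the 10 genes from RefSeq (GRCm38.p6), as the 250 bases before the annotated start. The interferon-response motif GAANNGAAA, searched on both strands, was found in 5 of the 9 (H2-K1, H2-D1, H2-Q4, H2-Q6 and H2-Q7) and in 6.31% of 32851 promoters of the same length. Only this spelling was searched. The B2m promoter holds gaaactgaaa, a similar but longer stretch that was not counted, so genes without a match may still hold other forms of the motif. A 10-base NF-kB motif, spelled out by the first capitals in H2-K1 below, was found in H2-K1, H2-D1, H2-Q6 and H2-Q7, and in 0.0852% of all promoters. Only this exact spelling was counted, and it is the one that H2-K1 carries, so the share is a description and no test. H2-Q4 holds the similar ggggatttccc before its interferon-response motif, which was not counted. The interferon-response and NF-kB motifs did not overlap each other in the sequences shown. The short elements of class I promoters were common everywhere: the CRE half-site TGACG was found in 6 of the 9 and in 17.8% of all promoters, and the CCAAT box, counted in either orientation (CCAAT or the inverted ATTGG), in 9 of the 9 and in 33.8%. H2-T23 and Tap1 held it only as CCAAT. The promoters of 4 genes are printed so that the classical H2-K1 can be set beside the 3 H2-Q genes. In each, capitals mark the NF-kB motif, where there is one, followed by the interferon-response motif, which lies on the other strand and is therefore read as its reverse complement. The H2-K1 promoter is chr17:34000348-34000597 (minus strand), that of H2-Q4 chr17:35379367-35379616, that of H2-Q6 chr17:35424600-35424849 and that of H2-Q7 chr17:35438905-35439154 (all plus strand), each 5′ to 3′.
H2-K1: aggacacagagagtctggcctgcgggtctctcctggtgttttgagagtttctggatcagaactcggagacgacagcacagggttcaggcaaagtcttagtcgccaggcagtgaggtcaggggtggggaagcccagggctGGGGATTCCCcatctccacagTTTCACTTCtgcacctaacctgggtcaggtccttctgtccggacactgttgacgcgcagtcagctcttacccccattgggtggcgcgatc
H2-Q4: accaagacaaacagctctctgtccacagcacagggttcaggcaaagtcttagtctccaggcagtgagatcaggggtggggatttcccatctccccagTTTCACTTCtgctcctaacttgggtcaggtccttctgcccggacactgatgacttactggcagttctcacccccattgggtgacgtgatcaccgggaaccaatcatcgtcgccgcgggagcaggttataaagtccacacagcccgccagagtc
H2-Q6: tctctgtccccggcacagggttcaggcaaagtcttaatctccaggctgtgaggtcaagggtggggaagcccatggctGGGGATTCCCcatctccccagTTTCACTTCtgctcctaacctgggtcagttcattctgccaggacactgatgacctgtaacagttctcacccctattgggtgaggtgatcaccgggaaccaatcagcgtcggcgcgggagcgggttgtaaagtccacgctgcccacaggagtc
H2-Q7: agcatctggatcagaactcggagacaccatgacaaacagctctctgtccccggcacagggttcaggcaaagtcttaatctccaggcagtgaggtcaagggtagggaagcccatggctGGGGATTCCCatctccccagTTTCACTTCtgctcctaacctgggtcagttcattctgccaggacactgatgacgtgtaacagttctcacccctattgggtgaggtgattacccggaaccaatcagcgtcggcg
The interferon-response motif began 90 bases before the annotated start in H2-K1, 153 in H2-Q4, 152 in H2-Q6 and 113 in H2-Q7. A match of letters is a description of the sequence and not a measured binding site.

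The libraries held 15755504 to 34326349 UMIs each, and 50625 of 54646 barcodes were kept as cells. Cells were clustered with the 10 genes and other class I pathway genes left out, and clusters were named from marker genes. The 6 cell types described were ECs, mural cells, microglia, perivascular macrophages (PVMs), choroid plexus epithelial cells and fibroblasts. All 12 markers of ECs, mural cells, PVMs and choroid plexus were highest in their own type, as were 11 of 12 for microglia (not Sparc) and 10 of 12 for fibroblasts (not Igf2 and Slc6a13). All conditions were pooled for this, and the same markers had named the clusters, so it is not a separate check. ECs numbered 458 to 3631 per library, microglia 272 to 1428, choroid plexus cells 180 to 1115, PVMs 146 to 235, mural cells 59 to 215, and fibroblasts 17 to 38 outside the juvenile libraries, so the fibroblast values rest on few cells. Within some types different clusters held the cells of different conditions: adult ECs were mostly in cluster 0 (88.4%), juvenile ECs in cluster 10 (97.1%) and EAE ECs in clusters 15 (60.1%) and 0 (39.5%), while EAE microglia were mostly in cluster 16 (94.1%) and adult microglia in cluster 3 (96.7%). Choroid plexus cells were mostly in cluster 7 in the juvenile libraries (82.4%) and in cluster 4 elsewhere, and EAE fibroblasts were mostly in cluster 19 (61.1%) against cluster 11 elsewhere. Cluster 16 was named microglia at a marker score of 0.479, where 0.4 was the minimum, against 0.975 for cluster 3. None of the 12 microglia markers was among the 10 top genes of cluster 16. Any 2 libraries shared 13 to 125 cell barcodes, at most 1.66%. Adult 2 and Adult 3 were nearly alike (a chi-square per degree of freedom of 1.4 over EC genes, the lowest of all EC pairs, against 21.1 and 21.3 for each with Adult 1) and were counted as 1 sample, so adult had n = 2. Other pairs were nearly as alike but were kept as separate samples: the same EC value was 1.62 for Juvenile 3 and 4, 1.7 for Juvenile 1 and 2, 1.84 for EAE 1 and 2 and 2.21 for Aged 1 and 2, and in microglia it was 1.27 for Adult 2 and 3 and 1.28 to 1.61 for these 4 pairs. The levels below are UMIs of a gene per 1000000 UMIs of the cell type in a library (CPM). Each captured transcript copy counts once in this 3′ assay, so levels were not divided by gene length.

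In adult cortex, microglia, PVMs and ECs had the highest class I levels, mural cells and fibroblasts lower levels and choroid plexus cells the lowest for most genes. H2-K1 was at 622, 744 and 819 CPM in PVMs of Adult 1, 2 and 3, at 598, 614 and 654 CPM in microglia and at 584, 655 and 640.0 CPM in ECs. These 3 types overlapped and could not be ordered for H2-K1. Mural cells (209, 220.0 and 183 CPM) and fibroblasts (203, 296 and 269 CPM) lay below them and overlapped each other, and choroid plexus cells lay lowest, at 109, 89.3 and 97.8 CPM.

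For H2-D1 the order was PVMs (2214, 2192 and 2058 CPM), then ECs (1802, 1907 and 1852 CPM), then microglia (994, 1132 and 1261 CPM), with no overlap between neighbours. B2m was highest in PVMs (4353, 5371 and 5264 CPM), followed by microglia (3452, 3864 and 4359 CPM) and ECs (2762, 3074 and 2976 CPM). PVMs and microglia overlapped by a narrow margin between single libraries, and the EC levels did not overlap those of either. H2-T23 was highest in ECs, at 319, 345 and 349 CPM, above the range of PVMs (236 to 278 CPM) and of microglia (211 to 248 CPM). Tap2, which encodes a subunit of the peptide transporter, was also highest in ECs (133, 138 and 136 CPM) and did not overlap microglia (108 to 109 CPM).

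Adult H2-Q6 and H2-Q7 levels were low in all 6 types. H2-Q7 was at 9.70, 16.7 and 17.1 CPM in ECs, 14.5, 33.3 and 18.9 CPM in microglia and 18.1, 23.5 and 24.7 CPM in PVMs, and these 3 types overlapped. Neither gene had a UMI in the 56 adult fibroblasts, where 3 counts, the limit that a count of 0 allows, correspond to 15.4 CPM. H2-Q4 was higher, at 123, 142 and 143 CPM in ECs, and overlapped microglia (93.7 to 138 CPM).

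Over the 10 genes and 4 conditions, PVMs had the highest level in 16 of the 40 combinations, microglia in 13, ECs in 8, fibroblasts in 3, and mural and choroid plexus cells in 0. Across conditions, EAE had the highest level in 58 of the 60 combinations of gene and cell type, without overlap with any other condition in 52, and juvenile the lowest in 54, without overlap in 45. The nearly alike adult libraries were pooled for these counts. The counts describe the levels and carry no test. The share of all genes with the same order or the same lack of overlap is not given. The counts therefore cannot show whether class I genes stand out from other genes.

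**Figure D1:**
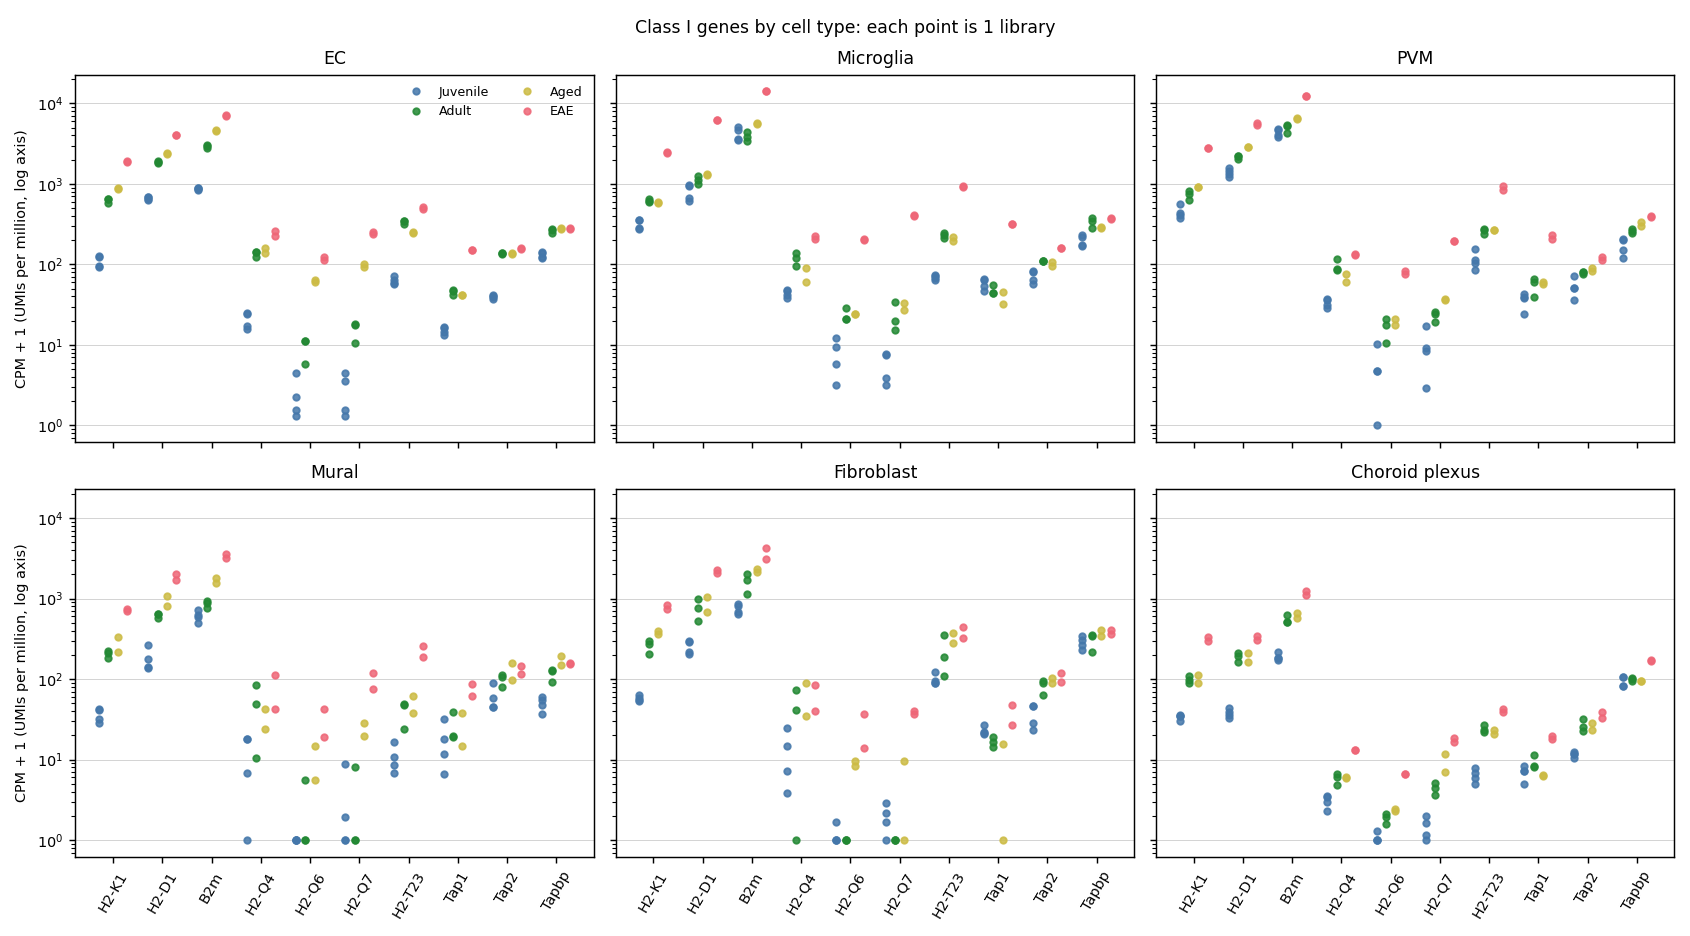
Level of each class I gene (CPM + 1, log axis) in each library, by cell type and condition; each point is 1 library and Adult 2 and 3 are drawn separately. The EAE points lie above the other conditions for most genes, and the juvenile points lie lowest in most panels.

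In EAE, class I genes rose in every cell type tested. Of 56 tests of a gene in a cell type, 45 were called higher and 0 lower. A gene was called when its adjusted p was under 0.05 in edgeR's quasi-likelihood test on summed UMIs, with the Benjamini-Hochberg adjustment over all genes tested in that cell type. H2-Q6 in mural cells and H2-Q6, H2-Q7 and Tap1 in fibroblasts did not pass the filter on low counts and were not tested. With every close pair of libraries summed, which leaves 1 EAE sample whose spread is taken from the other conditions, 27 were called: 5 in ECs, 8 in microglia, 7 in PVMs, 5 in choroid plexus cells, 2 in mural cells and 0 in fibroblasts. The share of all genes called with close pairs summed is not given, so these counts cannot show whether class I genes stand out there. The 3 comparisons with adult share the adult libraries and are therefore not independent of each other. H2-Q6 and H2-Q7 were picked from aged against adult ECs. Their p-values in other comparisons with adult ECs, and in differences from the EC effect, are therefore not independent of that choice.

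In ECs, 9 of the 10 genes were called higher, where 15.4% of all 13441 genes tested were called higher and 27.7% in either direction. The median log2 fold change was 1.4 over the 10 genes and 0.00 over all genes. H2-Q7 was at 249 and 238 CPM in the EAE libraries against 9.70, 16.7 and 17.1 CPM in adult, for a log2 fold change of 4.25 with SE 0.36 (adjusted p = 7.2e-05). H2-Q6 was at 123 and 114 CPM against 4.85, 10.1 and 10.1 CPM (log2 fold change 3.96, SE 0.35, adjusted p = 7.49e-05). The adult EC values also served in picking both genes, so these p-values are not free of that choice. Every EAE library lay above every adult library for both genes, and H2-Q4, the third H2-Q gene, rose much less, from 123, 142 and 143 CPM to 257 and 226 CPM (1.04, SE 0.16, adjusted p = 0.00068).

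The classical genes H2-K1, at 1897 and 1920.4 CPM in EAE ECs, and H2-D1, at 4032 and 4106 CPM, also lay above all adult values. H2-K1 rose by 1.82 on the log2 scale (SE 0.14, adjusted p = 1.91e-06) and H2-D1 by 1.33 (SE 0.11, adjusted p = 3.42e-06). B2m rose from 2762, 3074 and 2976 CPM to 7043 and 7091 CPM (1.47, SE 0.12, adjusted p = 2.58e-06). H2-T23 changed least of the heavy chains in ECs, from 319, 345 and 349 CPM to 494 and 511 CPM (0.78, SE 0.13, adjusted p = 0.000804).

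The loading genes moved unequally in ECs. Tap1 rose from 41.2, 46.1 and 46.8 CPM to 149 and 148 CPM (1.93, SE 0.11, adjusted p = 1.77e-07). Tap2, its partner in the transporter, went only from 133, 138 and 136 CPM to 159.9 and 157 CPM (0.41, SE 0.10, adjusted p = 0.00753), and lost its call when either EAE library was left out (adjusted p = 0.0621 and 0.0523). Tapbp was at 276 and 284 CPM in EAE against 248, 269.6 and 273 CPM in adult ECs and was not called (0.29, SE 0.11, adjusted p = 0.0773).

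In microglia the same 9 genes were called, against 13.6% of 11187 genes called higher and 25.9% called in either direction, with a median of 2.24 over the 10 genes. H2-Q7 reached 403 and 406 CPM in EAE from 14.5, 33.3 and 18.9 CPM in adult, which was the largest change among the 10 genes there (log2 fold change 4.54, SE 0.28, adjusted p = 1.87e-07). Tap1 went from 42.8, 54.9 and 43.7 CPM to 313 and 315 CPM (2.98, SE 0.19, adjusted p = 4.98e-08). H2-D1, at 994, 1132 and 1261 CPM in adult microglia, was at 6315 and 6303 CPM in EAE (2.74, SE 0.22, adjusted p = 1.61e-06). None of these EAE values overlapped the adult values, and B2m, at 14138 and 14183 CPM, was higher in EAE microglia than in any other of the 6 types.

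All 10 genes were called higher in PVMs, against 10.7% of 7693 genes called higher and 18.9% called in either direction. H2-Q7 rose from 18.1, 23.5 and 24.7 CPM to 196 CPM in both EAE libraries (3.33, SE 0.25, adjusted p = 1.32e-09). Tapbp and Tap2 were both called in PVMs, at 0.73 (SE 0.18, adjusted p = 0.00583) and 0.75 (SE 0.20, adjusted p = 0.00947). The calls of H2-Q4, Tap2 and Tapbp in PVMs were each lost without 1 or other EAE library, at adjusted p of 0.0562 to 0.0973, and that of H2-Q4 also without Adult 1 (adjusted p = 0.0630). H2-Q4 and Tap2 were not called by the DESeq2 Wald test (adjusted p = 0.149 and 0.0942).

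In choroid plexus cells 9 of the 10 genes were called higher, against 17.2% of 13109 genes called higher and 33.6% called in either direction. H2-Q7 was at 17.7 and 15.5 CPM in EAE against 4.13, 2.60 and 3.43 CPM in adult (2.12, SE 0.30, adjusted p = 2.58e-05), and H2-K1 at 329.6 and 296 CPM against 109, 89.3 and 97.8 CPM (1.54, SE 0.12, adjusted p = 2.35e-08). Both genes lay above all adult libraries. Tap2 was not called there (0.29, SE 0.16, adjusted p = 0.157), while Tapbp was (0.66, SE 0.13, adjusted p = 0.000492).

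In mural cells 5 of the 9 genes tested were called higher (B2m, H2-D1, H2-K1, H2-Q7 and H2-T23), against 0.876% of 6048 genes called higher and 1.31% called in either direction. H2-T23 rose from 47.0, 47.8 and 22.9 CPM to 189 and 256 CPM (2.44, SE 0.31, adjusted p = 0.00064). H2-Q7 rose by 4.68 on the log2 scale (SE 0.87, adjusted p = 0.0104), from 7.05, 0 and 0 CPM (3 UMIs in all) to 73.7 and 119 CPM. That value was 8.46 without Adult 1, the only adult library with a UMI, and its call was lost without either EAE library (adjusted p = 0.0509 and 0.175). The call of H2-D1 was lost without EAE 2 (adjusted p = 0.0588). With cells named by marker score 3 mural genes were called, as H2-T23 was not (1.72, adjusted p = 0.199) and H2-Q7 was not tested.

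In fibroblasts 3 of the 7 genes tested were called higher (H2-K1, H2-D1 and B2m), against 2.16% of 3292 genes called higher and 4.43% called in either direction. H2-K1 rose from 203, 296 and 269 CPM to 745 and 821 CPM, with no overlap (1.70, SE 0.23, adjusted p = 0.00238). Without EAE 1 the calls of B2m and H2-D1 were lost (adjusted p = 0.0932 and 0.0600), and B2m also without Adult 1 (adjusted p = 0.0753). With cells named by marker score H2-K1 was the only one called (adjusted p = 0.199 for B2m and 0.156 for H2-D1). H2-Q7, which could not be tested there, had 6 UMIs in the 36 EAE fibroblasts and 0 in the 56 adult ones.

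Markers of leukocytes rose in the same libraries. The summed level of 12 leukocyte genes (of T, natural killer and B cells, neutrophils and monocytes) was 65.0 to 98.5 CPM in adult ECs and 307 to 316 CPM in EAE ECs, with Trac at 0 in adult and all 12 genes detected in EAE. In microglia the sum went from 64.1 to 122 CPM in adult, with Trbc2 at 0, to 425 to 434 CPM, with all 12 detected. In PVMs it went from 48.3 to 70.4 CPM (Cd3d and Trac at 0) to 307 to 399.5 CPM (Trac and Cd79a at 0), and in choroid plexus cells from 89.1 to 102 CPM to 298 to 299 CPM, with all 12 detected in both. In mural cells it went from 50.4 to 63.5 CPM (Cd79a at 0) to 415 to 453 CPM (Trac and Cd79a at 0), and in fibroblasts from 46.7 to 71.6 CPM to 248 to 284 CPM, where 7 and 6 of the 12 genes were at 0. When every cell with a UMI of the list was left out, 36 of 47 tests were called higher: 9 in ECs, 9 in microglia, 9 in PVMs, 5 in choroid plexus and 4 in mural cells. This removed 23% of adult and 57.5% of EAE ECs, and 41.7% of adult and 86.7% of EAE choroid plexus cells. The share of all genes called under this setting is not given. Fibroblasts had too few EAE cells left to test. In choroid plexus cells H2-Q4, H2-Q6, H2-T23 and Tap1 lost their calls, at log2 fold changes of 1.42, 3.15, 0.96 and 0.50 (adjusted p = 0.178 to 0.815). When every close pair of libraries was summed to 1 sample, an alternative chosen after seeing the data that leaves 1 EAE sample, 5 EC genes stayed called. H2-Q6 (adjusted p = 0.0781), H2-Q7 (0.0999), H2-T23 (0.0819) and Tap2 (0.240) were then not called in ECs, with log2 fold changes of 4.07, 4.34, 0.83 and 0.47.

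**Figure D2:**
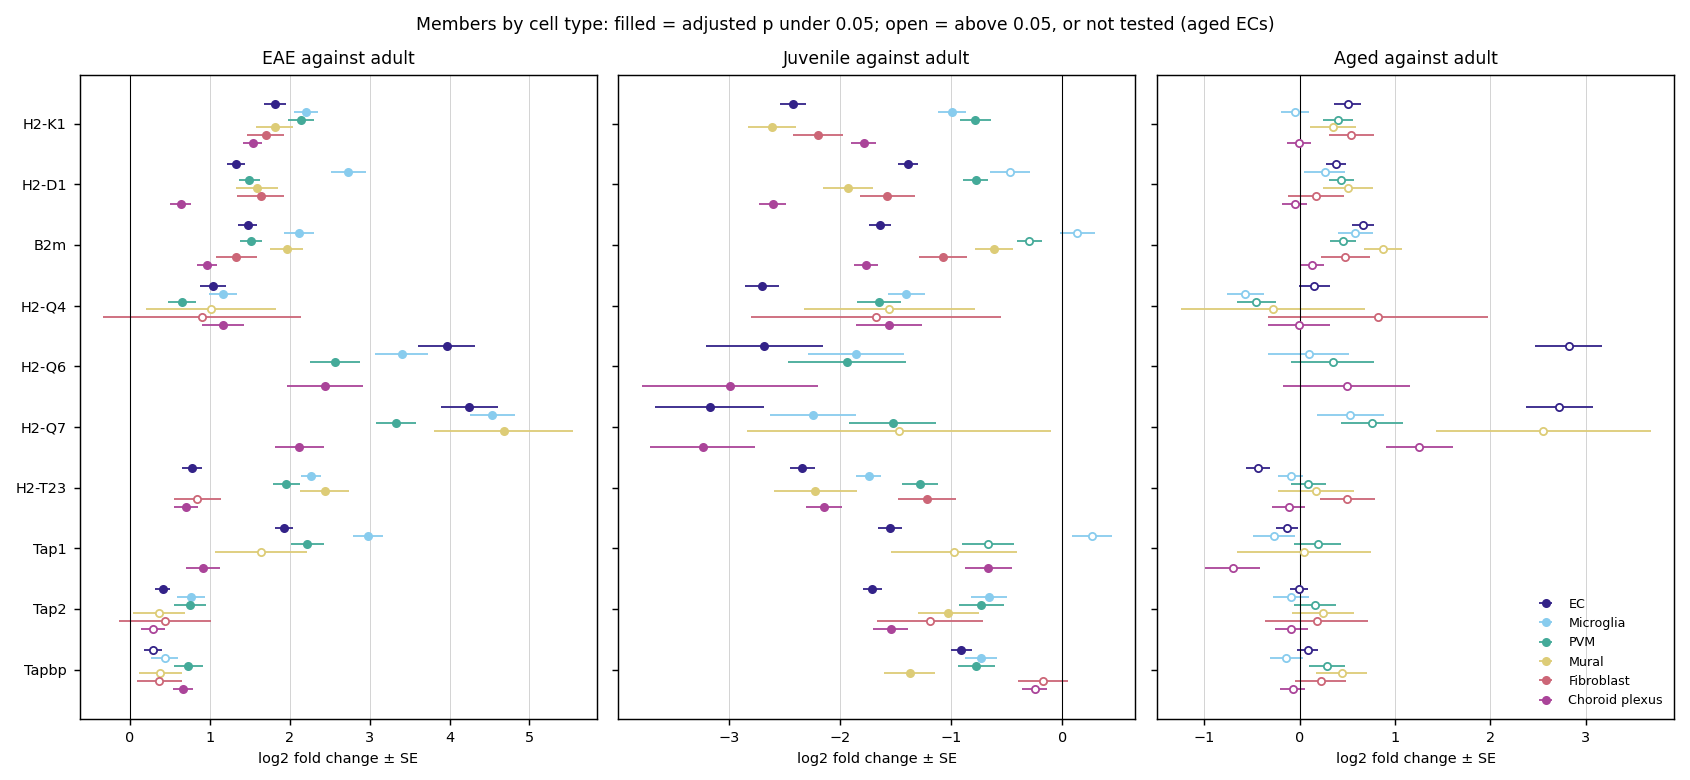
Log2 fold change ± SE of each class I gene against adult in EAE, juvenile and aged libraries, by cell type (edgeR); filled points have an adjusted p under 0.05, and aged ECs are open because they were not tested. In EAE the H2-Q6 and H2-Q7 changes lie furthest to the right, and 45 of 56 tests were called, in juvenile libraries 44 of 56 were called lower, and in aged libraries 0 of 46 were called outside ECs.

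The size of the EAE effect differed between cell types for some genes. The difference from the effect in ECs was tested in 1 edgeR fit over the 6 types with the library as a block (Benjamini-Hochberg over 13933 genes), and 10 of 50 differences were called. Microglia rose more than ECs in 4 genes, against 5.58% of all genes called higher and 11.9% called in either direction: H2-T23 by 1.51 more on the log2 scale (SE 0.20, adjusted p = 1.58e-08), H2-D1 by 1.43 (SE 0.22, adjusted p = 1.84e-06), Tap1 by 1.07 (SE 0.21, adjusted p = 0.000117) and B2m by 0.66 (SE 0.19, adjusted p = 0.0133). The B2m difference was not called without Adult 1 or without either EAE library (adjusted p = 0.0781 to 0.195), nor without the library as a block (0.117) or the cells holding a leukocyte UMI (0.188). With every close pair summed, which leaves 1 EAE sample, the calls of B2m and Tap1 did not hold, at differences of 0.65 and 1.05.

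The EAE effect of H2-T23 was larger than in ECs in microglia, in PVMs (by 1.23, SE 0.20, adjusted p = 5.83e-06, against 2.05% of genes called higher and 4.76% in either direction) and in mural cells (by 1.63, SE 0.29, adjusted p = 0.000235, against 0.309% and 0.926%). The mural difference was not called with cells named by marker score (0.98, adjusted p = 0.518). In fibroblasts 0 of the 10 differences were called, against 0.66% of all genes in either direction. Levels show the same: H2-T23 was higher in ECs than in PVMs and microglia in adult cortex, whereas in EAE it was at 921 and 951 CPM in microglia and 843 and 929.7 CPM in PVMs against 494 and 511 CPM in ECs.

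Choroid plexus cells rose less than ECs in 4 genes, against 11% of all genes called lower and 20.5% called in either direction: H2-Q7 by -2.16 (SE 0.41, adjusted p = 0.000143), Tap1 by -0.99 (SE 0.23, adjusted p = 0.000673), H2-Q6 by -1.61 (SE 0.57, adjusted p = 0.0372) and H2-D1 by -0.67 (SE 0.22, adjusted p = 0.0231). H2-Q6 lost this call without Adult 1 (adjusted p = 0.373, difference -1.08), Adult 3, either aged or either EAE library, and H2-D1 without either EAE library. Both also lost it with the DESeq2 Wald test (adjusted p = 0.118 each), with DESeq2 size factors (adjusted p = 0.0534 for H2-Q6 and 0.1 for H2-D1) and without the library as a block (0.147 and 0.137). With every close pair summed, which leaves 1 EAE sample, the calls did not hold. The differences were then -2.22 for H2-Q7, -1.02 for Tap1, -1.66 for H2-Q6 and -0.69 for H2-D1. None of the 4 was called with the cells holding a leukocyte UMI left out (adjusted p = 0.187 to 0.759). The differences were then -1.58 for H2-Q7, -1.45 for Tap1, -1.06 for H2-Q6 and -0.49 for H2-D1. Tapbp (0.40, SE 0.20, adjusted p = 0.154) and H2-Q4 (0.14, SE 0.33, adjusted p = 0.820) went the other way without a call. Tapbp was called larger than in ECs with the DESeq2 Wald test (0.50, adjusted p = 0.0211), naming by marker score (0.44, adjusted p = 0.0230) and plain totals (0.65, adjusted p = 0.0108). Markers of ECs also moved: their 12 genes summed to 1634 to 1796 CPM in adult and 540.0 to 599 CPM in EAE choroid plexus cells, against 22106 to 28527 CPM in adult and EAE ECs, with all 12 detected in each. The same sum went from 1322 to 1625 CPM to 467 to 491 CPM in microglia, from 1383 to 1808 CPM to 606 to 674 CPM in PVMs, from 2279 to 3325 CPM to 2267 to 2615 CPM in mural cells and from 2561 to 3044 CPM to 1525 to 1621 CPM in fibroblasts, where Kdr was at 0 in EAE. The part of such RNA in these differences was not tested.

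**Figure D3:**
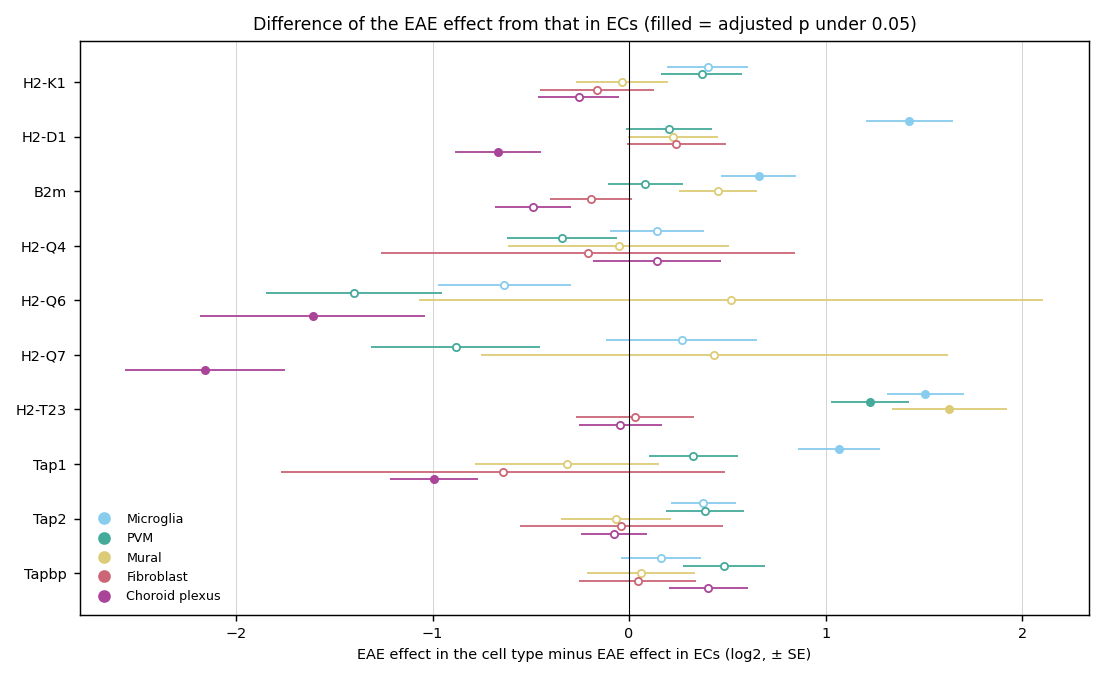
Difference between the EAE effect in a cell type and the EAE effect in ECs (log2, ± SE) for each class I gene; filled points have an adjusted p under 0.05 and a point right of 0 means a larger rise than in ECs. Microglia lie to the right for H2-D1, B2m, H2-T23 and Tap1, and choroid plexus cells to the left for H2-D1, H2-Q6, H2-Q7 and Tap1; fibroblasts at H2-Q6 and H2-Q7, whose SE exceeded 2, are not drawn.

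Juvenile cells had less RNA of most class I genes than adult cells. In all, 44 of 56 tests were called lower and 0 higher. All 10 genes were called lower in ECs, against 21.7% of the genes tested called lower and 41.6% called in either direction, with a median of -2.02. H2-K1 was at 123, 125, 91.3 and 95.5 CPM in the juvenile libraries against 584, 655 and 640.0 CPM in adult (log2 fold change -2.42, SE 0.12, adjusted p = 1.24e-08). H2-T23 was at 57.4, 55.4, 63.9 and 70.4 CPM against 319, 345 and 349 CPM (-2.34, SE 0.11, adjusted p = 9.98e-09). Neither gene had a juvenile library near the adult range. H2-Q7 (-3.17, SE 0.49, adjusted p = 0.00108) and H2-Q6 (-2.68, SE 0.52, adjusted p = 0.00349) fell from levels that were already low in adult ECs to between 0.316 and 3.54 CPM, and the H2-Q6 change was -3.63 without Juvenile 2. With every close pair summed the calls of H2-Q7 and H2-Q6 did not hold, at -3.07 and -2.57. Tapbp fell least, from 248, 269.6 and 273 CPM to between 118 and 142 CPM (-0.91, SE 0.10, adjusted p = 1.25e-05).

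In juvenile microglia B2m, Tap1 and H2-D1 were not called. B2m was at 3499, 3581, 4714 and 5118 CPM in juvenile microglia, which overlapped the adult values (0.13, SE 0.16, adjusted p = 0.589), and Tap1, at 46.0 to 64.4 CPM, also overlapped adult (0.27, SE 0.18, adjusted p = 0.32). H2-D1 lay below adult in every juvenile library without a call (-0.47, SE 0.18, adjusted p = 0.0770). In all, 7 of the 10 genes were called lower there, against 12.3% of all genes called lower and 24.3% in either direction, with H2-Q7 at -2.24 (SE 0.39, adjusted p = 0.0011), H2-T23 at -1.74 (SE 0.11, adjusted p = 1.78e-07) and H2-K1 at -0.99 (SE 0.13, adjusted p = 5.35e-05). The calls of H2-Q6 and Tap2 in microglia were lost without Adult 1 (adjusted p = 0.0663 and 0.0673).

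In PVMs 8 of the 10 were called lower (not B2m, -0.29, adjusted p = 0.114, nor Tap1, -0.67, adjusted p = 0.0779), against 5.56% of all genes called lower and 9.41% in either direction. In choroid plexus cells 9 of the 10 were called lower, against 29.7% called lower and 57.5% in either direction. H2-D1 fell there from 213, 162 and 192 CPM to between 31.6 and 42.6 CPM (-2.60, SE 0.12, adjusted p = 4.36e-13), and Tapbp, at 79.9 to 105 CPM against 93.4 to 102 CPM, overlapped in CPM (-0.25, SE 0.11, adjusted p = 0.064). In mural cells 6 of 9 were called lower (13.2% of all genes called lower, 25.1% in either direction) and in fibroblasts 4 of 7 (2.22% and 4.16%), with H2-K1 at -2.61 (SE 0.22, adjusted p = 2.61e-06) and -2.20 (SE 0.22, adjusted p = 0.000554). These shares belong to the reported fit and are not given for the groupings of libraries that follow. The fibroblast count was 1 with the juvenile pairs summed and 0 with every close pair summed, where microglia and PVMs had 4 each, ECs and choroid plexus cells 8 each and mural cells 4.

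Without Adult 1, 6 of the 44 juvenile calls were lost (adjusted p = 0.0632 to 0.13): Tap1 in choroid plexus, H2-Q6 and Tap2 in microglia, B2m and Tap2 in mural cells and Tap2 in PVMs. Up to 3 were lost without any of Adult 2, Juvenile 1, Juvenile 2 or Juvenile 3: H2-Q6, H2-Q7 and Tap2 in PVMs, B2m in mural cells and H2-T23 in fibroblasts, which moved from -1.22 to -0.66 without Adult 2. The change of H2-Q6 in choroid plexus cells was -2.99, and -5.41 without Juvenile 3, the only juvenile library with a UMI of it there. The median UMI count per EC was 5761 in juvenile and 3109.5 in adult libraries, and the leukocyte sum in ECs was 9.19 to 18.2 CPM in juvenile libraries, with Cd3e and Trac at 0. It was 3.8 to 18.3 CPM in juvenile against 48.3 to 70.4 CPM in adult PVMs (6 of 12 genes at 0 in juvenile), 7.75 to 24.7 CPM against 89.1 to 102 CPM in choroid plexus cells (Trac at 0), 18.6 to 41.8 CPM against 64.1 to 122 CPM in microglia (4 of 12 at 0), 11.9 to 115 CPM against 50.4 to 63.5 CPM in mural cells (Nkg7 and Ly6c2 at 0) and 22.4 to 36.2 CPM against 46.7 to 71.6 CPM in fibroblasts (Trac at 0). The sum of the 12 EC markers was also lower than in adult, at 372 to 474 CPM against 1322 to 1625 CPM in microglia, 581 to 677 CPM against 1634 to 1796 CPM in choroid plexus cells, 594 to 937 CPM against 1383 to 1808 CPM in PVMs and 978 to 1715 CPM against 2279 to 3325 CPM in mural cells, and the ranges overlapped in fibroblasts (2319 to 2877 CPM against 2561 to 3044 CPM), with all 12 detected in each. With every cell holding a leukocyte UMI left out, 40 of 53 juvenile tests were called lower: 10 in ECs, 8 in microglia, 6 in PVMs, 8 in choroid plexus cells, 6 in mural cells and 2 in fibroblasts. The share of all genes called lower under this setting is not given. H2-Q6 (-1.45, adjusted p = 0.219) and Tap2 (-0.72, adjusted p = 0.0567) in PVMs then lost their calls. So did Tap1 in choroid plexus cells (-0.68, adjusted p = 0.0565) and, in fibroblasts, B2m (-0.91, adjusted p = 0.0810) and H2-T23 (-1.02, adjusted p = 0.177). In microglia H2-D1 gained a call (-0.56, adjusted p = 0.0379). The part of the RNA of EC markers in the juvenile differences was not tested.

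With age, no class I gene was called outside ECs. In edgeR 0 of 46 tests were called, where 12 had an unadjusted p under 0.05, and the DESeq2 Wald test also called 0. An unadjusted p that low was seen for 2 of 10 class I genes in microglia (1774 of 11187 over all genes) and 5 of 10 in PVMs (1082 of 7693). It was seen for 2 of 10 in choroid plexus cells (1696 of 13109), 2 of 9 in mural cells (435 of 6048) and 1 of 7 in fibroblasts (288 of 3292). The share of all genes called in either direction was 0.0331% in mural cells, 1.85% in microglia, 1.83% in PVMs, 1.89% in choroid plexus cells and 0.0304% in fibroblasts. The member nearest a call was H2-Q7 in choroid plexus cells, at 6.03 and 10.8 CPM in aged against 4.13, 2.60 and 3.43 CPM in adult libraries (1.25, SE 0.35, adjusted p = 0.0753). It was called without Adult 1 (1.44, adjusted p = 0.0300), without the filter on low counts (1.22, adjusted p = 0.0139) and with Adult 2 and 3 as separate samples (1.26, adjusted p = 0.0417). With every cell holding a leukocyte UMI left out, which removed 79.0% of aged choroid plexus cells, it was at 1.05 (adjusted p = 0.856).

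B2m was higher in both aged libraries than in all adult ones in microglia (5688 and 5563 CPM against 3452, 3864 and 4359 CPM) and in PVMs (6626 and 6412 CPM against 4353, 5371 and 5264 CPM), without a call (0.58, SE 0.18, adjusted p = 0.121, and 0.45, SE 0.13, adjusted p = 0.0849). Aged PVMs also had H2-D1 at 2911 and 2874 CPM against 2214, 2192 and 2058 CPM (0.44, SE 0.13, adjusted p = 0.0958). H2-Q4 lay lower in both, without a call: it was at 59.2 and 88.4 CPM in aged microglia against 93.7, 138 and 118 CPM in adult (-0.57, SE 0.19, adjusted p = 0.16). Some of these were called under an alternative: B2m in microglia without the filter on low counts (0.63, adjusted p = 0.000971) and with a replicate block that also takes Adult 2 and 3 as separate samples (0.69, adjusted p = 0.000836), B2m in PVMs in that same fit (0.48, adjusted p = 0.0162), and H2-D1 in PVMs in that fit (0.47, adjusted p = 0.0213) and with Adult 2 and 3 as separate samples alone (0.45, adjusted p = 0.0337). B2m in mural cells (0.88, adjusted p = 0.247) was called without the filter (0.84, adjusted p = 0.0481). The leukocyte sum was 269 to 373 CPM in aged against 64.1 to 122 CPM in adult microglia (Trac at 0 in aged), 308 to 325 CPM against 48.3 to 70.4 CPM in PVMs (all 12 detected in aged), 309.9 to 398 CPM against 89.1 to 102 CPM in choroid plexus cells (Trac and Cd79a at 0 in aged) and 246 to 427 CPM against 50.4 to 63.5 CPM in mural cells (Trac, Trbc2 and Cd79a at 0 in aged). The share of microglia with a UMI of the list was 13% in adult and 54.8% in aged libraries. With every cell holding such a UMI left out, B2m was at 0.54 (adjusted p = 0.179) in microglia, 0.45 (adjusted p = 0.158) in PVMs and 0.46 (adjusted p = 0.682) in mural cells, and H2-Q4 in microglia at -0.91 (adjusted p = 0.0519). H2-D1 in PVMs was then at 0.41 (adjusted p = 0.228). The sum of the EC markers was 913 to 1236 CPM in aged against 1322 to 1625 CPM in adult microglia and 1117 to 1377 CPM against 1634 to 1796 CPM in choroid plexus cells, and overlapped in PVMs (1318 to 1455 CPM against 1383 to 1808 CPM), with all 12 detected in each. The part of such EC RNA in the aged values was not tested.

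In aged ECs, from which H2-Q6 and H2-Q7 were picked, the values are given without a test. H2-Q7 was at 101 and 92.4 CPM and H2-Q6 at 59.9 and 62.5 CPM, log2 fold changes of 2.72 and 2.82 against adult. The other genes followed in the order B2m (0.66), H2-K1 (0.50), H2-D1 (0.38), H2-Q4 (0.15), Tapbp (0.08), Tap2 (0.00), Tap1 (-0.13) and H2-T23 (-0.44). H2-T23, at 250.2 and 245 CPM, lay below all adult libraries, and the aged leukocyte sum in ECs was 237 to 324 CPM with all 12 genes detected.

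The H2-Q genes and the classical pair did not keep the same proportion. The ratio is the UMIs of H2-Q4, H2-Q6 and H2-Q7 per 100 UMIs of H2-K1 and H2-D1, with a 95% exact binomial interval that covers counting error only. It is a description, in part of the values that chose the genes. In ECs it was 3.62 (interval 2.98 to 4.37), 3.77, 2.15 and 2.21 in the juvenile libraries, 5.78 (5.25 to 6.35), 6.60 and 6.81 in adult, 9.0 (8.62 to 9.39) and 9.73 in aged and 10.6 (10.3 to 10.9) and 9.60 in EAE libraries. Juvenile, adult and the other groups did not overlap, and aged and EAE libraries did. The parts differed: H2-Q4 gave 2497 of the H2-Q UMIs in adult ECs, with 164 of H2-Q6 and 280 of H2-Q7, and 5266 in EAE ECs, with 2582 and 5318. Without H2-Q4, the ratio was 0.610 to 1.09 in adult, 4.79 to 4.83 in aged and 5.85 to 6.28 in EAE ECs.

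Microglia did not follow this order. Their ratio was 4.24 to 5.75 in juvenile, 8.07 to 11.0 in adult, 5.86 and 7.42 in aged, and 9.47 and 9.29 in EAE libraries, which lay within the adult range. With H2-Q6 and H2-Q7 alone, it was 2.18 to 3.05 in adult and 6.93 in both EAE libraries, so the 2 genes rose and H2-Q4 fell behind relative to the classical pair. In choroid plexus cells the ratio went from 2.78 to 3.40 in adult to 4.96 and 5.30 in aged and 5.32 and 5.51 in EAE libraries, on 89 and 373 H2-Q UMIs. The juvenile libraries there were at 3.75, 3.73, 2.45 and 4.69, on 5 to 19 H2-Q UMIs each, which overlapped adult. In PVMs it was 2.07 to 2.92 in juvenile, 3.96 to 5.44 in adult, 2.93 and 3.45 in aged, and 5.0 and 4.82 in EAE libraries. Mural cells and fibroblasts had 88 H2-Q UMIs or fewer per group and adult libraries from 1.95 to 10.4 and from 0 to 6.90, and no order could be read.

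**Figure D4:**
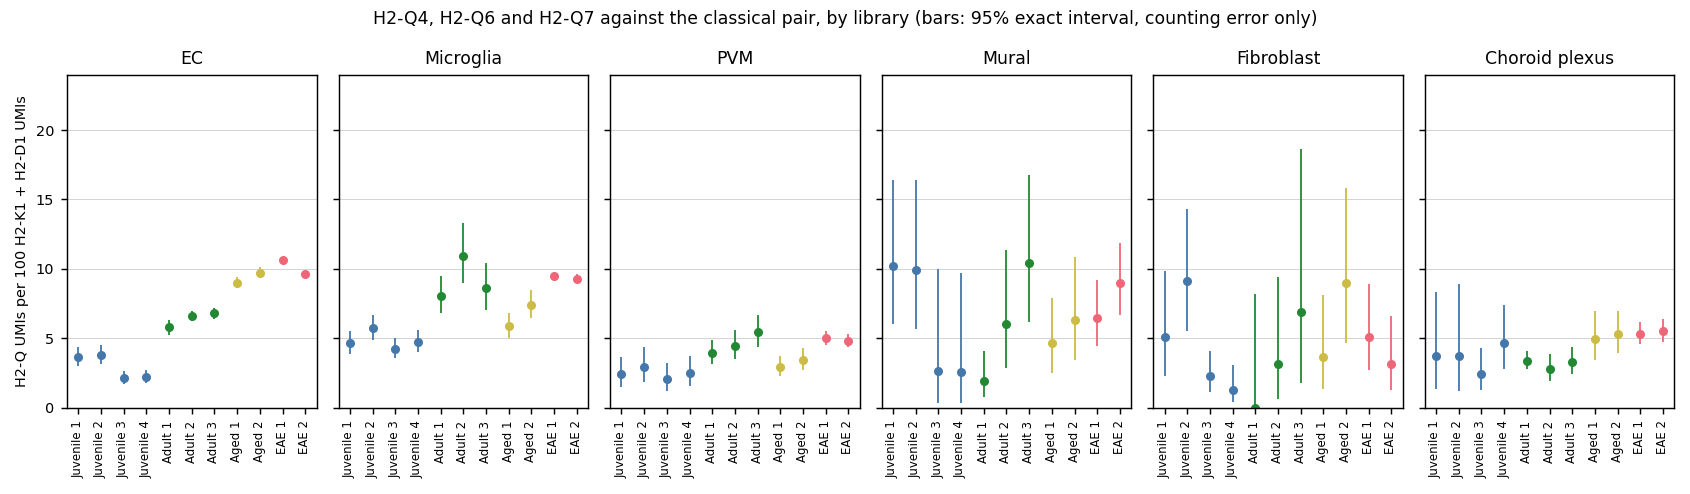
UMIs of H2-Q4, H2-Q6 and H2-Q7 per 100 UMIs of H2-K1 and H2-D1 in each library, by cell type; bars are 95% exact binomial intervals of counting error. In ECs the points step up from juvenile (2.15 to 3.77) over adult (5.78 to 6.81) to aged and EAE libraries (9.0 to 10.6), whereas EAE microglia lie within the adult range.

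Within the classical pair, H2-K1 gave 12.3% to 16.0% of the UMIs in juvenile ECs, 24.5% to 25.7% in adult, 26.6% to 26.8% in aged and 31.9% to 32.0% in EAE ECs. It also rose in EAE choroid plexus cells (33.8% to 35.5% in adult, 49.2% in both EAE libraries) and PVMs (21.9% to 28.5%, then 32.9% and 34.5%). In microglia the share went the other way, from 34.2% to 37.5% in adult to 27.7% and 28.3% in EAE libraries. B2m per UMI of the 6 heavy-chain genes was near 1 in adult (0.972 to 0.999) and EAE ECs (0.996 and 0.999), and 1.20 in both aged libraries. It was highest in juvenile microglia (3.29 to 3.49), at 1.77 to 1.89 in adult, 2.42 and 2.64 in aged and 1.34 and 1.35 in EAE microglia.

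EC clusters, which had been formed without these genes, differed in H2-Q6 and H2-Q7. In adult ECs of cluster 0 (led by Cxcl12, Degs2 and Sema3c) H2-Q7 was at 9.44, 7.60 and 7.30 CPM in Adult 1, 2 and 3. In cluster 10, led by Aplnr, Apln and Fbln5, which held 119 and 124 cells of Adult 2 and 3, it was at 107 and 108 CPM, and H2-Q6 at 65.4 and 75.7 CPM against 3.14 and 3.48 CPM in cluster 0 of those libraries. Cluster 15, led by Lrg1, Ch25h and Lcn2, lay between, with H2-Q7 at 23.6 and 28.6 CPM. The adult values of clusters 10 and 15 come from Adult 2 and 3 only, which count as 1 sample, and in Adult 1 H2-Q7 was at 9.44 CPM in cluster 0 and at 9.70 CPM over all ECs. The lead genes were found over all conditions. Of the 3251 cells of cluster 10, 2781 were juvenile, so its lead genes need not mark its adult cells. Over all juvenile ECs, 97.1% of them in cluster 10, H2-Q7 was at 0.316 to 3.54 CPM. Tap1 was alike in the 3 clusters of Adult 2 and 3 (46.2 and 47.4, 43.6 and 37.8, and 47.2 and 48.1 CPM). The clusters are descriptions over the same libraries, and no test was made between them.

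The rise in EAE was present within cluster 0. There H2-Q7 was at 174 and 155 CPM in EAE 1 and 2 and H2-K1 at 1693 and 1705 CPM, against 577 to 599 CPM of H2-K1 in the adult libraries. In cluster 15, which held most EAE ECs, H2-Q7 was at 273 and 265 CPM, H2-Q6 at 138 and 132 CPM and Tap1 at 162 and 161 CPM, all above EAE cluster 0 (Tap1 111 and 106 CPM). In aged ECs H2-Q7 was at 72.0 and 75.7 CPM in cluster 0, 140.3 and 119 CPM in cluster 15 and 196 and 184 CPM in cluster 10.

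Shares of cells with a UMI were compared after each cell was thinned to 1500 UMIs, leaving out 4837 shallower cells. H2-K1 was seen in 55.0% to 56.3% of adult ECs, 64.8% to 66.0% of aged, 91.1% to 91.8% of EAE and 10.4% to 17.8% of juvenile ECs, where the unthinned shares were 75.3% to 79.4%, 74.9% to 78.6%, 95.1% to 95.8% and 34.4% to 55.2%. H2-Q7 was seen in 1.36% to 1.92% of adult, 11.8% to 12.1% of aged and 25.9% to 27.4% of EAE ECs after thinning, and in 3.37% to 4.96%, 19.1% to 19.7% and 39.2% to 40.6% before. In EAE microglia the thinned share was 43.3% in both libraries, from 1.37% to 3.45% in adult. No type here is known to lack class I RNA. Choroid plexus cells had a thinned H2-Q7 share of 0.385% to 0.479% in adult and 2.38% to 4.47% in EAE libraries, with median depths before thinning of 4712 and 11070.0 UMIs against 3109.5 and 2350.0 UMIs in ECs, and the EC shares lay above them in both conditions.

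Other genes of the class I pathway were taken from a list of 27, made of other class I-like chains, immunoproteasome subunits and peptide trimming, chaperones and regulators. In EAE, 10 of the 24 tested were called higher and 6 lower in ECs, 14 and 3 of 23 in microglia, 12 and 1 of 18 in PVMs, 6 and 3 of 22 in choroid plexus cells, 1 and 0 of 14 in mural cells and 1 and 2 of 11 in fibroblasts. The share of all genes called in either direction was 27.7% in ECs, 25.9% in microglia, 18.9% in PVMs, 33.6% in choroid plexus cells, 1.31% in mural cells and 4.43% in fibroblasts, and the choroid plexus count lies near it. The immunoproteasome subunit Psmb8 rose in ECs (1.51, SE 0.13, adjusted p = 3.77e-06), PVMs (1.96, SE 0.18, adjusted p = 3.85e-08), mural cells (2.49, SE 0.31, adjusted p = 0.00064) and fibroblasts (2.13, SE 0.54, adjusted p = 0.0421). The non-classical heavy chain H2-T22 rose in ECs (1.51, SE 0.11, adjusted p = 1.13e-06), microglia (2.66, SE 0.15, adjusted p = 1.92e-08) and PVMs (2.79, SE 0.21, adjusted p = 1.38e-09). Of the loading chaperones on the list (Calr, Canx, Pdia3 and Tapbpl), 3 of 4 were called lower and Tapbpl higher in ECs, 2 of 4 lower and Tapbpl higher in microglia, 1 of 4 lower and Tapbpl higher in PVMs, 2 of 4 lower in choroid plexus cells, 0 of 3 in mural cells and 2 of 3 lower in fibroblasts. Pdia3, which works beside tapasin, fell in choroid plexus cells (-1.19, SE 0.12, adjusted p = 2.88e-07) and fibroblasts (-1.52, SE 0.26, adjusted p = 0.0103), and was not called in PVMs (-0.23, SE 0.15, adjusted p = 0.317) or mural cells (-0.83, SE 0.24, adjusted p = 0.0972). Calr, another of these chaperones, fell in choroid plexus cells (-0.37, SE 0.13, adjusted p = 0.0287) and fibroblasts (-1.13, SE 0.24, adjusted p = 0.0193).

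In juvenile libraries 16 of the 24 other pathway genes were called lower and 3 higher in ECs, 13 and 2 of 22 in choroid plexus cells, 9 and 1 of 23 in microglia, 5 and 1 of 18 in PVMs, 2 and 0 of 14 in mural cells and 2 and 0 of 11 in fibroblasts. Of all genes, 21.7% were called lower in ECs, 29.7% in choroid plexus cells, 12.3% in microglia, 5.56% in PVMs, 13.2% in mural cells and 2.22% in fibroblasts, and the mural count lies near its share. Psmb9 (-2.29, SE 0.10, adjusted p = 3.94e-09), Psmb8 (-2.09, SE 0.11, adjusted p = 3.17e-08) and Irf1 (-1.70, SE 0.30, adjusted p = 0.00241) were lower in juvenile ECs. The gene called higher in microglia was Fcgrt, the heavy chain of the neonatal Fc receptor, which also pairs with B2m (1.20, SE 0.14, adjusted p = 1.61e-05), and it was also the one called higher in PVMs (0.68, SE 0.11, adjusted p = 0.000395). In juvenile choroid plexus cells Pdia3 (-1.39, SE 0.10, adjusted p = 2.45e-10), Fcgrt (-1.27, SE 0.10, adjusted p = 2.75e-09), Psme1 (-0.59, SE 0.10, adjusted p = 7.24e-05) and Calr (-0.49, SE 0.11, adjusted p = 0.000523) were lower. In aged libraries Psmb8 in PVMs was the only call outside ECs (0.74, SE 0.18, adjusted p = 0.0324).

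The genes whose levels were most like those of the class I genes were found over the 66 sums of a library and cell type, among 6943 genes outside the lists, by Pearson's r of log2(CPM + 1). The sums share libraries, and r is a description. For H2-K1 and H2-D1 together they were Igtp (0.910), Gbp7 (0.908), Ly6e (0.907), Irgm1 (0.883) and Sp100 (0.861). For H2-Q6 and H2-Q7 together they were AW112010 (0.870), Cd274 (0.851), Ccl5 (0.825), Zbp1 (0.803) and Parp14 (0.775). Cd274, which encodes PD-L1, was at 9.39 to 13.5 CPM in adult and 56.4 to 65.2 CPM in EAE ECs, and Igtp, an interferon-inducible GTPase, at 64.3 to 68.7 and 252 to 263 CPM. Not all 10 were higher by much in EAE ECs: Ly6e was at 2186 to 2417 and 2493 to 2525 CPM, and Sp100 was lower, at 168 to 190.0 and 121 to 122 CPM.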

How the data were processed

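Single cells of mouse cortex were measured in 11 libraries. Per the labels, the authors deposited raw counts, 1 UMI count per gene and cell, made with bcl2fastq 2.19.1.403, UMI-tools 0.5.3, STAR 2.5.3a and featureCounts 1.6.1 on mm10 (submitters' processing notes). The study's methods name other versions of some tools, and the annotation and strand setting are not given in the sources used here. Reads shared by near-identical genes may have been dropped or split, which bears on H2-Q6 most.

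Barcodes were kept as cells when they held over 500 but below 6000 genes and less than 25% of their UMIs were mitochondrial, and 242 cells with over 2% haemoglobin UMIs were set aside. The rest were clustered with scanpy 1.11.5 (Python 3.11.15; 2000 variable genes, 12 principal components, 20 neighbours, Leiden resolution 0.5), which gave 22 clusters, named from marker lists with the 10 genes and the pathway list left out. Of these cells, 1026 (2.04%) with markers of a second type were set aside, and 40236 fell into the 6 types. Scrublet called 818 doublets (1.62%), which were kept and left out as an alternative. The cell types were rebuilt here and may differ from those of the study.

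Counts were summed per library and type where at least 10 cells were present, with Adult 2 and 3 summed, and tested with edgeR 4.0.16 (R 4.3.3; quasi-likelihood, robust, TMM, filterByExpr), in 1 fit per type over all conditions, with Benjamini-Hochberg adjustment over all genes and a threshold of 0.05. All conditions share 1 estimate of the spread. The script was tested on simulated data, with libraries drawn independently and the same spread for all genes. The real libraries come in close pairs, so the rates below need not hold for them. Simulated EAE changes of 1 on the log2 scale were recovered for 58.9% of genes in ECs, 18.9% in mural cells and 14.9% in fibroblasts. False calls made up 5.08%, 11.4% and 17.2% of the calls. Changes of 2 were recovered for 96.9%, 82.7% and 80.6% of genes, with 5.10%, 7.33% and 6.80% false calls. A difference of 1 between microglia and ECs was recovered for 9% of genes, with 0% false calls. Alternatives were DESeq2 1.42.0, other scalings, no filter on low counts, other clusterings and namings, other groupings of libraries, a replicate block, and leaving out doublets, cells with a leukocyte UMI or each library. The following were chosen after seeing the data: keeping the mixed cells and summing every close pair.

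The genes named are the 10 members. Of the pathway list, up to 4 per comparison with the largest change among those called with at least 50 CPM are named, and the 5 genes most correlated with each of the pairs H2-K1 and H2-D1, and H2-Q6 and H2-Q7. 1 gene that this rule would name is not reported here. The members and lists were chosen with earlier results of these data known. Total UMIs per library set the precision, and intervals and limits for counts of 0 cover counting error only.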

Additional observations from a re-analysis of the deposited data

Results flagged for a closer look

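Among groups of 4 libraries (the juvenile ones), 5 of 59 had a library far from the other 3, with a gap to its nearest neighbour above Dixon's 95% critical share of the whole range. Chance gives about 1 in 20 for independent values of normal spread. The juvenile libraries come in close pairs, and any count passes where the others are at 0, so that rate may not hold here. In choroid plexus cells H2-Q6 was at 0.282 CPM in Juvenile 3 (2 UMIs) and at 0 in the others. In fibroblasts H2-Q6 was at 0.696 CPM in Juvenile 3 (1 UMI) and at 0 in the others, H2-T23 at 122 CPM in Juvenile 4 against 87.4 to 93.3 CPM, and Tap1 at 25.6 CPM in Juvenile 1 against 20.1 to 20.9 CPM. In mural cells H2-Q7 was at 7.76 CPM in Juvenile 4 (2 UMIs) against 0 to 0.949 CPM.

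The EAE effect differed from that in ECs in 10 of 50 tests of a gene in a cell type (edgeR, library as a block). It was larger in microglia for H2-T23 (1.51 on the log2 scale), H2-D1 (1.43), Tap1 (1.07) and B2m (0.66), larger in PVMs for H2-T23 (1.23) and larger in mural cells for H2-T23 (1.63). It was smaller in choroid plexus cells for H2-Q7 (-2.16), H2-Q6 (-1.61), Tap1 (-0.99) and H2-D1 (-0.67).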

How the results depend on the processing

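Over 13 alternatives, 27 to 48 class I tests were called higher in EAE (45 of 56 as reported) and 28 to 48 lower in juvenile libraries (44 of 56). With every close pair of libraries summed, 27 and 28 were called. With 1 library left out at a time, 39 to 46 and 41 to 46 were called. The share of all genes called is given for the reported fits only and not for these alternatives. All 45 and 44 called changes kept their sign in every setting that tested them, and 24 and 25 of them were called in every such setting. Some were not tested in every setting. Outside ECs, the aged libraries gave 0 calls as reported, 3 without the filter on low counts, 2 with Adult 2 and Adult 3 separate and 0 to 1 with a library left out. The 10 differences between EAE effects became 5 of 40 without cells holding a leukocyte UMI, 4 with close pairs summed and 7 to 12 with a library left out. The median H2-Q to classical ratio of EAE ECs was 10.1, 6.06 with H2-Q6 and H2-Q7 alone and 9.10 without cells holding a leukocyte UMI. Leaving H2-Q4 out takes its UMIs from the numerator, which lowers this ratio by definition. The cause of the other moves was not tested. Leaving out cells or summing libraries also lowers the number of cells or samples.

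The replicate numbers did not pair the libraries: over 13 pairs of the same number, the correlation of deviations was -0.206 to 0.0908. With a replicate block over the 11 libraries, which also takes Adult 2 and Adult 3 apart, 47 tests were called in EAE, 47 in juvenile and 3 in aged libraries, against 45, 48 and 2 with both apart and no such block, and without the library as a block 7 differences between EAE effects were called. With scaling by plain totals, the median of all genes in EAE was -0.18 in ECs, -0.22 in microglia and -0.19 in PVMs (0.0028, -0.0044 and -0.022 as reported), and that of the differences from ECs was 0.23 in choroid plexus cells (-0.019 as reported), where H2-D1 (-0.42) and H2-Q6 (-1.37) then lost their calls. Depth limits the H2-Q genes in fibroblasts and mural cells, where many libraries held 0 to 3 UMIs.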

Other observations

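Cell types outside the 6 described also carried class I RNA, given here as values without a test. In T and natural killer cells H2-Q7 was at 462 ± 53.7 CPM in adult and 536 ± 36.5 CPM in aged libraries (mean ± SD, n = 2 each), levels that ECs and PVMs did not reach in any condition. In astrocytes H2-K1 was at 180.0 ± 13.7 CPM in adult and 1226 ± 184 CPM in EAE libraries. Ependymal cells, which line the ventricles, had H2-K1 at 3458 ± 833 CPM in EAE and 42.5 ± 8.27 CPM in juvenile libraries (n = 4). The EAE value rests on 33 and 25 cells. Adult libraries held 8, 3 and 1 ependymal cells and aged libraries 3 and 2, too few for a value. The EAE and juvenile values therefore differ in age as well as in disease.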
